A study of Mus musculus with 40 samples.

Results

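The genes described here are 10 regulators of growth-factor and nutrient signalling: the transcription factor genes Foxo1 and Foxo3, the ubiquitin ligase gene Fbxo32, the sestrin genes Sesn1 and Sesn3, the alpha-arrestin genes Txnip, Arrdc3 and Arrdc4, and the insulin and PI3K pathway genes Pik3ip1 and Irs2. They were chosen by symbol, with their response to Toll-like receptor stimulation in these same data already known, and each is represented by its transcript with the highest mean RNA-Seq level. They are 10 of 22865 genes in the expression table. The cells were thioglycollate-elicited peritoneal macrophages of 2 inbred mouse strains, C57BL6/J and BALBc/J, with no genetic change named in the labels. All were harvested 4 days after the injection, plated overnight and washed free of cells that did not adhere. They were left untreated or stimulated through Toll-like receptor 4 with its agonist Kdo2-lipid A (KLA, 100 ng/ml) for 1 hr in every assay and also for 4 hr in RNA-Seq.

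Expression came from 6 RNA-Seq libraries of polyadenylated RNA and 4 GRO-Seq libraries, which measure RNA still being made by the polymerase, with 1 library for each strain and treatment. For the macrophage factors PU.1 and C/EBPa and the histone marks H3K4me2 and H3K27Ac there was 1 peak list for each strain and treatment, and for the NF-kB subunit p65 there were 2 replicates per strain, all after KLA. With 1 library for each, treatments stood in as replicates of a strain, and strains as replicates of a treatment. A p-value here reflects just how far these libraries depart from 1 shared strain difference and 1 shared change per treatment. A KLA response that truly differs between the strains counts as such spread. The labels do not say that libraries came from separate animals, so the spread may also be technical. The fit pools the spread over genes. In GRO-Seq the standard errors come wholly from the trend over all genes and not from a gene's own libraries. These are bulk samples, in which fewer cells of a type and less RNA per cell cannot be told apart.

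FoxO proteins are transcription factors that stay in the nucleus when insulin or growth-factor signalling is low. Active PI3K and Akt phosphorylate them and send them to the cytoplasm. Their textbook targets include Fbxo32 (atrogin-1, a ubiquitin ligase of muscle wasting), the stress-induced sestrins, which restrain mTORC1, and Irs2, an adaptor of the insulin receptor. Pik3ip1 is a membrane protein that restrains PI3K. Txnip and Arrdc4 are alpha-arrestins that limit glucose uptake and respond to glucose through carbohydrate response elements, and Arrdc3 is a related adaptor in receptor trafficking.

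The 10 genes did not share 1 response. Fbxo32, Sesn1, Arrdc3, Foxo3 and Irs2 were nearly lost from the RNA-Seq libraries after KLA for 4 hr, at 1.88 to 12.8% of their untreated tags. Txnip was lower at 1 hr and back at its untreated level at 4 hr. Arrdc4 and, at a far lower level, Pik3ip1 were higher at 4 hr, Foxo1 stayed at 55.4 to 78.7% of its untreated level in RNA-Seq, and Sesn3 was scarce throughout. A description as genes switched off therefore holds for 5 of the 10. Because the genes were picked for their response to KLA, their KLA values below are descriptions without a test, and for these 10 genes only the comparison of the strains is tested.

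The labelled cell type was checked against its markers. The 8 macrophage markers, Lyz2, Cd68 and Csf1r among them, summed to 93013 to 135652 tags per 10 M in RNA-Seq. Sums for the other lists were 1514 to 2128 (C57BL6/J) and 3336 to 3749 (BALBc/J) for mesothelial and fibroblast markers, 78.5 to 342 for neutrophil markers (almost all S100a8, with the other 4 at 1.77 or less), and at most 243 for T and NK markers (Cd3e at 0.54 or less and Ncr1 at 1.08 or less, Lck at 186 and 234 after 4 hr). Dendritic cell markers reached at most 131, eosinophil markers 88.9, mast cell markers 64.3, B cell markers 47.9, erythroid markers 1.77 and adipocyte markers 1.56. The 4 skeletal muscle markers, fixed because Fbxo32 is best known in muscle, summed to 9.05 to 21.3, with Myh4 at 0, against 3222 and 4028 tags for Fbxo32 in the untreated libraries. The part of these other cells in the values below was not tested beyond these sums. RNA-Seq libraries held 17.0 to 20.3 M tags (M, mega) and GRO-Seq libraries 39.4 to 48.3 M, with 7.39 to 9.83% of the GRO-Seq tags in exons.

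Expression is given as exon tags per 10 M, a scale set by the library total and not corrected for transcript length. Fitted changes are on the scale of log2(tags per 10 M + 10), with a standard error. The pseudocount of 10 makes the change of a low gene smaller than the ratio of its tags. In untreated cells the order of levels per kb of transcript was led by Txnip at 1470 and 1444 tags per 10 M per kb (C57BL6/J and BALBc/J), followed by Fbxo32 at 465 and 581. Sesn1 (341 and 198) and Arrdc3 (319.6 and 242) came next and changed places between the strains. Arrdc4 (119 and 119.5) and Foxo3 (114 and 87.3), Irs2 (44.6 and 48.2) and Foxo1 (37.1 and 41.6), and Sesn3 (8.19 and 9.40) and Pik3ip1 (7.88 and 4.17) formed the lower pairs. After KLA for 4 hr Txnip (1582 and 1364) and Arrdc4 (258 and 315) held the highest places, and Irs2 (1.60 and 3.58) was lowest in both strains.

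**Figure D1:**
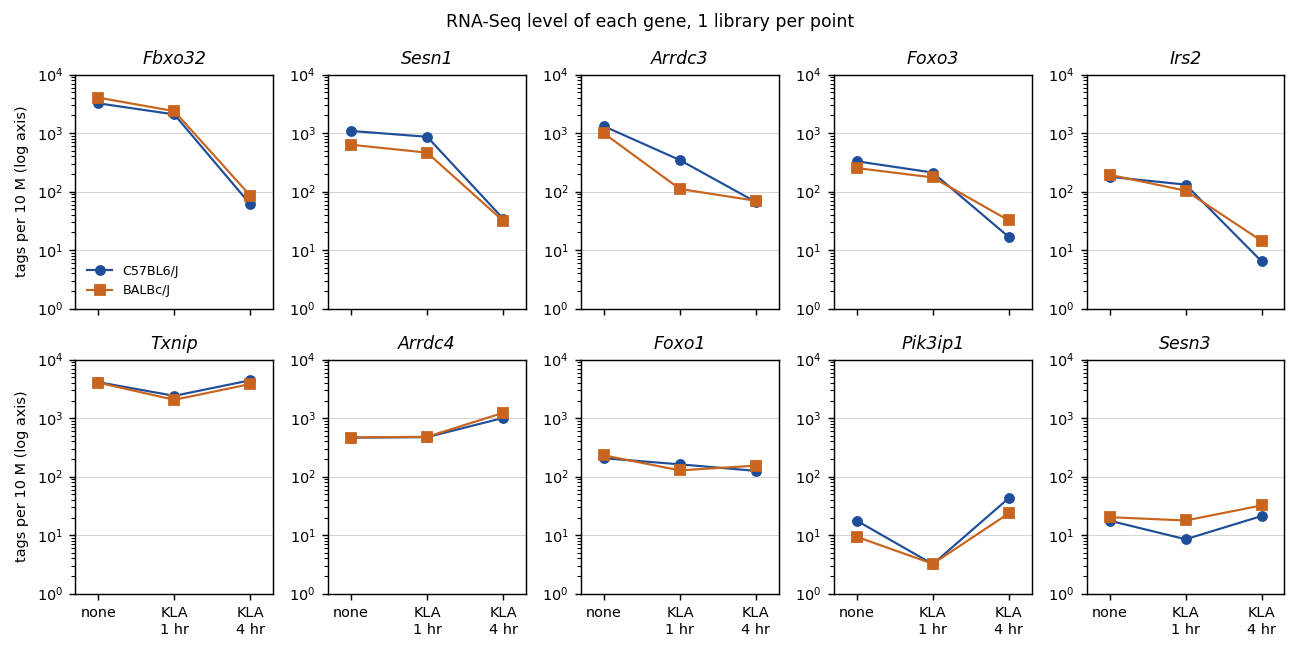
RNA-Seq level of each gene in exon tags per 10 M, on a log axis, against treatment. Each point is 1 library, circles for C57BL6/J and squares for BALBc/J, joined within a strain. Fbxo32, Sesn1, Arrdc3, Foxo3 and Irs2 end far below their untreated level at 4 hr, Txnip returns and Arrdc4 ends higher.

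Fbxo32, on chromosome 15 from 58007433 to 58046447 on the minus strand (mm9, as are all positions of genes and peaks here), stood at 3222 tags per 10 M untreated, 2082 after KLA for 1 hr and 60.7 after 4 hr in C57BL6/J. In BALBc/J it stood at 4028, 2368 and 85.1. Both 4 hr libraries lay far below all others, at 1.88% and 2.11% of the untreated tags. The fitted change was -0.70 ± 0.17 at 1 hr and -5.46 ± 0.17 at 4 hr, the lowest of 10692 genes at 4 hr. Nascent transcription was already low at 1 hr, when GRO-Seq exon tags stood at 8.41 against 379 per 10 M untreated in C57BL6/J and at 24.7 against 586 in BALBc/J. These are 35 tags against 1493 and 100 tags against 2831 before scaling, and the fitted change of -4.25 ± 0.34 was the lowest of 9109 genes. At 1 hr the polyadenylated RNA was thus still at 64.6% and 58.8% of its untreated level while exon tags in GRO-Seq were at 2.22% and 4.22%.

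Sesn1, the p53- and FoxO-induced sestrin, lies on chromosome 10 from 41530379 to 41628242 on the plus strand. It stood at 1086, 864 and 34.5 tags per 10 M in C57BL6/J (untreated, 1 hr and 4 hr) and at 631, 463 and 31.6 in BALBc/J. Again only the 4 hr libraries were low, with fitted changes of -0.38 ± 0.23 at 1 hr and -4.28 ± 0.23 at 4 hr. GRO-Seq tags at 1 hr were 18.5 against 110.3 untreated in C57BL6/J and 15.1 against 84.0 in BALBc/J, a fitted change of -1.99 ± 0.36. Sesn3, the third sestrin gene (chromosome 9, 14080744 to 14130578, plus strand), behaved differently and was scarce. It was at 17.7, 8.51 and 21.2 tags per 10 M in C57BL6/J and at 20.3, 17.8 and 32.2 in BALBc/J, and its 1 hr libraries were the lowest of each strain. In GRO-Seq it was at 2.79 and 1.44 in C57BL6/J and at 5.38 and 2.22 in BALBc/J, below the 20 tags required for a test.

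The shorter of the RefSeq forms of Sesn1 (2612 bases against 3182) starts at 41607244, inside the longer one. Its untreated RNA-Seq tags were 1082 against 1086 for the longer form in C57BL6/J and 625 against 631 in BALBc/J. The further bases of the longer form thus added few tags. Which start was in use was not tested. The match printed here lies at the upstream start, on which the peak windows of Sesn1 are also centred unless said otherwise. In the RefSeq promoter at the upstream start of Sesn1 (GRCm38.p6, chr10:41810586-41810612, plus strand), the FoxO core motif GTAAACA lies on the reverse strand, beginning 22 bases after the start. It is printed because Sesn1 is a textbook FoxO target, with the match in capitals.
Sesn1: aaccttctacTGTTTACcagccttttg

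Arrdc3 (chromosome 13, 81022682 to 81035303, plus strand) was the member with the lowest fitted RNA-Seq change at 1 hr. It stood at 1307, 345 and 66.1 tags per 10 M in C57BL6/J and at 988, 111 and 69.6 in BALBc/J. All 4 KLA libraries lay below both untreated ones, and the fitted change at 1 hr, -2.47 ± 0.34, was the lowest of all 10692 genes. At 4 hr it was -3.88 ± 0.34. As a share of untreated tags, Arrdc3 was at 26.4% in C57BL6/J and 11.2% in BALBc/J at 1 hr. The far scarcer Pik3ip1 was at 18.1% and 34.6%. GRO-Seq tags at 1 hr were 18.5 against 121 in C57BL6/J and 23.5 against 176 in BALBc/J (-2.34 ± 0.36).

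Foxo3 (chromosome 10, 41905591 to 41996548, minus strand) stood at 329, 211 and 16.8 tags per 10 M in C57BL6/J and at 252, 174 and 32.2 in BALBc/J. The 1 hr libraries were moderately lower than the untreated ones and the 4 hr libraries were low in both strains, with fitted changes of -0.56 ± 0.27 and -3.15 ± 0.27. GRO-Seq tags at 1 hr were 16.8 against 93.0 in C57BL6/J and 33.1 against 87.4 in BALBc/J (-1.56 ± 0.36). Foxo1 (chromosome 3, 52072258 to 52154031, plus strand), its paralog, was at 206, 162 and 125 in C57BL6/J and at 231, 128 and 154 in BALBc/J. Its untreated libraries were the highest of each strain, but the fitted changes were only -0.57 ± 0.21 at 1 hr and -0.61 ± 0.21 at 4 hr, the latter -0.19 relative to the median gene. In GRO-Seq it was at 47.8 untreated and 36.3 at 1 hr in C57BL6/J and at 64.6 and 72.4 in BALBc/J, so that the strains moved in opposite directions. The fitted GRO-Seq change of Foxo1 was -0.09 ± 0.36, and 0.26 relative to the median gene.

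Irs2 (chromosome 8, 10986963 to 11008430, minus strand) was low in RNA-Seq at 4 hr without a matching GRO-Seq value at 1 hr. It was at 179, 131 and 6.42 tags per 10 M in C57BL6/J and at 193, 104 and 14.4 in BALBc/J, with fitted changes of -0.63 ± 0.24 and -3.29 ± 0.24. The 4 hr values rest on 13 and 25 tags before scaling. GRO-Seq tags at 1 hr were 73.5 against 83.8 in C57BL6/J and 93.7 against 124 in BALBc/J, a fitted change of -0.27 ± 0.35 that became 0.08 relative to the median gene. GRO-Seq was not measured at 4 hr. Pik3ip1 (chromosome 11, 3230733 to 3242974, plus strand), the PI3K inhibitor, was at 17.7, 3.19 and 42.9 tags per 10 M in C57BL6/J and at 9.36, 3.24 and 23.6 in BALBc/J. It was lowest at 1 hr and highest at 4 hr in both strains, on 6 to 87 tags a library, and passed the filter only through its 4 hr libraries. The fitted change of Pik3ip1 was -0.81 ± 0.23 at 1 hr and 0.87 ± 0.23 at 4 hr, the latter 1.29 relative to the median gene. Its GRO-Seq tags were 8.38 and 2.64 in C57BL6/J and 18.4 and 4.45 in BALBc/J.

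Txnip (chromosome 3, 96361879 to 96365780, plus strand), which binds thioredoxin and restrains glucose uptake, was abundant throughout. It was at 4117, 2403 and 4432 tags per 10 M in C57BL6/J and at 4045, 2056 and 3822 in BALBc/J. The 1 hr libraries were the only low ones, with fitted changes of -0.87 ± 0.16 at 1 hr and 0.01 ± 0.16 at 4 hr. GRO-Seq tags were also lower at 1 hr, at 224 against 824 in C57BL6/J and 417 against 689 in BALBc/J (-1.27 ± 0.29). Arrdc4 (chromosome 7, 75881879 to 75894124, minus strand) was at 464, 473 and 1007 tags per 10 M in C57BL6/J and at 467, 480 and 1229.6 in BALBc/J. Both 4 hr libraries stood above all others, with fitted changes of 0.03 ± 0.18 at 1 hr and 1.24 ± 0.18 at 4 hr. GRO-Seq tags were already higher at 1 hr, at 174 against 107 in C57BL6/J and 239 against 88.0 in BALBc/J (1.00 ± 0.33).

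**Figure D2:**
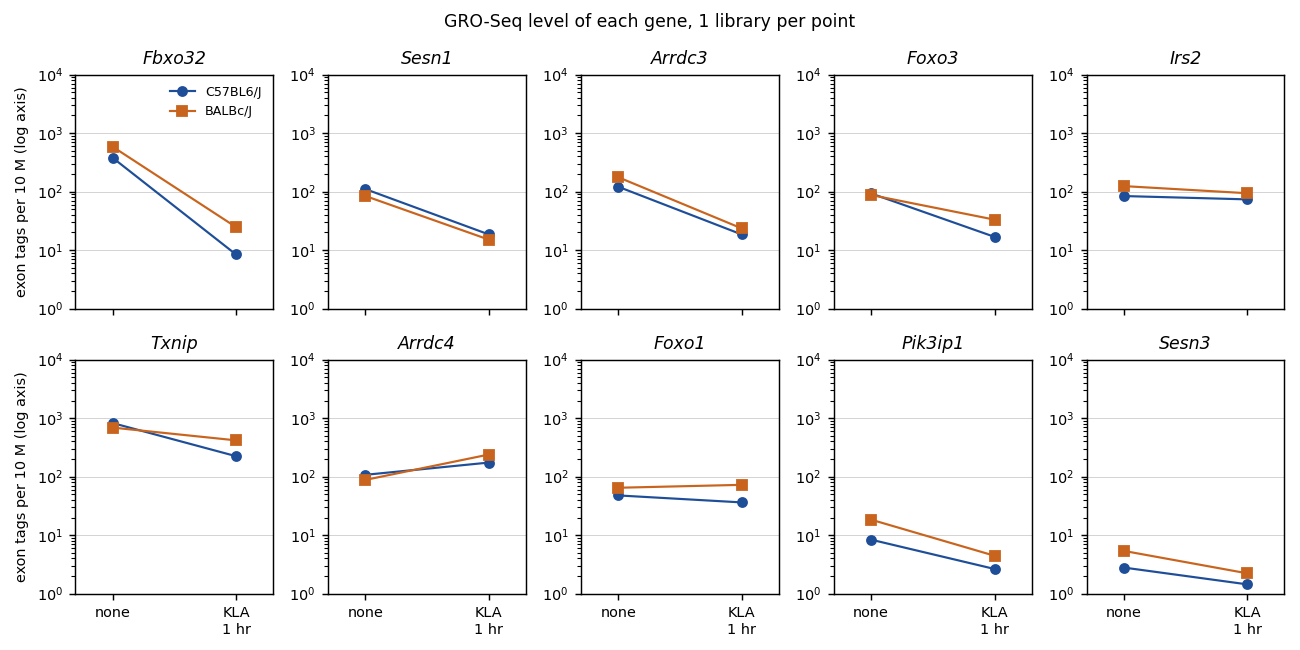
GRO-Seq level of each gene in exon tags per 10 M, on a log axis, untreated and after KLA for 1 hr. Each point is 1 library, circles for C57BL6/J and squares for BALBc/J. Fbxo32 shows the steepest line, from 379 to 8.41 in C57BL6/J, while Arrdc4 is higher after KLA and the 2 strains of Foxo1 differ in direction.

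Over all members, 5 of 10 had a fitted RNA-Seq change of -1 or lower at 4 hr and 1 of 10 had a change of 1 or higher, which became 5 and 2 after median scaling. The unscaled median was -1.88. Over all 10692 genes, 21.3% were at -1 or lower and 8.13% at 1 or higher, with a median of -0.47. By the call used for other genes (limma with Benjamini-Hochberg adjustment, adjusted p under 0.05 and a change of at least 1), 21.3% of all genes were lower and 8.10% higher. At 1 hr in RNA-Seq only Arrdc3 of the 10 was past 1 in either direction. Of all genes 1.92% were at -1 or lower and 1.96% at 1 or higher, with 1.43% called lower and 1.82% called higher. In GRO-Seq 5 of the 8 members tested were at -1 or lower and none at 1 or higher (Arrdc4 was just short at 0.996), or 4 and 1 relative to the median gene, against 15.5% of genes called lower and 4.31% called higher. As the members were picked on these contrasts, these shares are printed as background and nothing is read from them. Scaling libraries to their medians, which raises every fitted change by 0.43 at 4 hr, by 0.22 at 1 hr and by 0.35 in GRO-Seq, changed the split of calls from 866 higher and 2275 lower to 1248 and 1041 at 4 hr, from 195 and 153 to 241 and 78 at 1 hr in RNA-Seq, and from 393 and 1411 to 618 and 645 in GRO-Seq.

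Promoter sequences were taken from RefSeq (GRCm38.p6), which matched 9 of the 10 genes with 12 promoters, each from 250 bases before to 50 bases after the start. Fbxo32 had no entry. The 3 listed motifs were GTAAACA (FoxO core), CACGTG (E-box) and GGAAGT (PU.1 core), read on both strands. GTAAACA occurred in promoters of Txnip and Sesn1 and in 3.65% of all 32851 promoters, CACGTG in those of Arrdc4 and Irs2 and in 7.15% of all, and GGAAGT in none of the 12 and in 23.8% of all. A further pattern, a pair of CACGNG E-boxes with 5 bases between them as in textbook carbohydrate response elements, was added after the Txnip sequence had been seen. It occurred in Txnip and in 0.0487% of all promoters and does not overlap GTAAACA there. The 250 bases before the start are shown for the 3 genes with a match there, because they hold the FoxO core and E-box pair of Txnip and the single E-boxes of Arrdc4 and Irs2. They are on chr3:96557707-96557956 (plus strand), chr7:68749239-68749488 (minus strand) and chr8:11008930-11009179 (minus strand), each written in the direction of transcription with the matches in capitals. A match is a description of letters and not a bound site.
Txnip: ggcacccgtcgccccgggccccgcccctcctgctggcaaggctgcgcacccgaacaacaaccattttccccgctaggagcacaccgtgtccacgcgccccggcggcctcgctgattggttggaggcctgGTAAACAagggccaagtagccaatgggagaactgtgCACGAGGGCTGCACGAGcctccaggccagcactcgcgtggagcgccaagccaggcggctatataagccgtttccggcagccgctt
Arrdc4: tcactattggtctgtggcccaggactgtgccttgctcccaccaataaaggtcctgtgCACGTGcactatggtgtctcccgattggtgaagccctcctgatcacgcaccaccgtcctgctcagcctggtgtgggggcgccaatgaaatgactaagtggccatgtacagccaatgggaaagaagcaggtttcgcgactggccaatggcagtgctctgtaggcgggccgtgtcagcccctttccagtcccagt
Irs2: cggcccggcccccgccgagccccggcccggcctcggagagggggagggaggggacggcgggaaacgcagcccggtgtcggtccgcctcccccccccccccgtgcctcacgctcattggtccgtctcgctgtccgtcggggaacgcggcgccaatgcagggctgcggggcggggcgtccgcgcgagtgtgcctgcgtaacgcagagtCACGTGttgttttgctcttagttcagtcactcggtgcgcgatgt
The FoxO core of Txnip begins 121 bases and the E-box pair 85 bases before the start, the E-box of Arrdc4 begins 193 bases and that of Irs2 44 bases before it.

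The comparison of the strains is independent of how the genes were picked, and no member passed it. In RNA-Seq the difference of C57BL6/J minus BALBc/J over the 3 treatment pairs was largest for Arrdc3 (0.63 ± 0.28, 95% interval -0.02 to 1.28, adjusted p = 0.26 in limma) and Sesn1 (0.59 ± 0.19, interval 0.15 to 1.02, adjusted p = 0.11). Sesn1 was higher in C57BL6/J in 3 of 3 pairs, by 0.77, 0.89 and 0.10 on the log2 scale, and Arrdc3 in 2 of 3, by 0.40 and 1.56 and at -0.06 after 4 hr. For the other 8 members the difference lay between -0.38 (Sesn3) and 0.39 (Pik3ip1), and their intervals, from -0.77 to 0.81, did not reach a change of 1. Of all 10692 genes 1.19% were called higher and 2.52% lower in C57BL6/J, or 166 and 217 genes in place of 127 and 269 relative to the median gene. Relative to the median gene the difference of Sesn1 was 0.68 with an adjusted p of 0.044 in limma, still short of a change of 1. Without the 4 hr pair the differences of Sesn1 and Arrdc3 were 0.83 (adjusted p = 1.2e-07) and 0.98 (adjusted p = 6.2e-10) in limma, also short of it. On 1 residual degree of freedom these p-values rest on spread pooled over genes. They do not measure a gene's own spread, as the Arrdc3 pairs left were 0.40 and 1.56, and no strong strain effect is read from them. Without the 1 hr pair the differences of Sesn1 and Arrdc3 were 0.44 (adjusted p = 0.34) and 0.17 (adjusted p = 0.82) in limma. Without the untreated pair they were 0.49 (adjusted p = 0.64) and 0.75 (adjusted p = 0.19) in limma, so the size for Arrdc3 rests on its 1 hr pair.

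**Figure D3:**
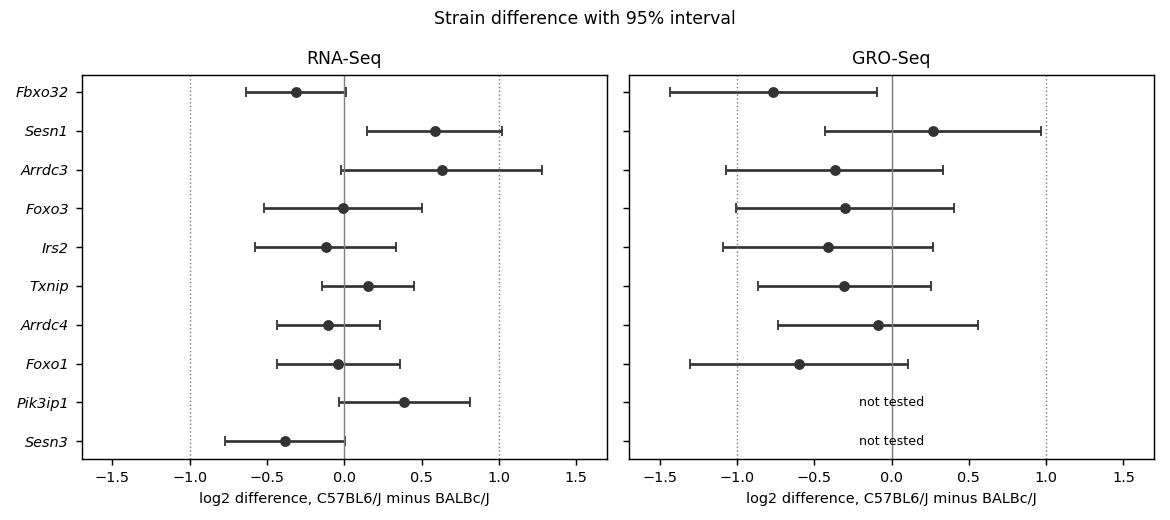
Fitted strain difference of each gene, C57BL6/J minus BALBc/J on the log2 scale, in RNA-Seq (left) and GRO-Seq (right). Points are fitted values with 95% intervals, dotted lines mark a change of 1, and no member was called in either assay. Sesn1 and Arrdc3 lie highest in RNA-Seq at 0.59 and 0.63.

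In GRO-Seq 8 members were tested and none was called. The difference ran from -0.76 ± 0.34 for Fbxo32 (95% interval -1.44 to -0.09, adjusted p = 0.58 in limma) to 0.27 ± 0.36 for Sesn1 (interval -0.43 to 0.97), and 4 of the 8 intervals still included a change of -1 or beyond besides that of Fbxo32. Of all 9109 genes 0.417% were called higher and 0.483% lower in C57BL6/J, or 87 and 28 genes in place of 38 and 44 relative to the median gene. Relative to it Fbxo32 was at -0.54 (adjusted p = 0.011) and Sesn1 at 0.50 (adjusted p = 0.020) in limma, both short of a change of 1. In neither assay does a missed threshold show that the strains act alike. Mesothelial and fibroblast markers were higher in BALBc/J (3 of 7 called in RNA-Seq, 2 after median scaling), and their part in the strain values was not tested.

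The wider pathways of these genes were read from lists of other genes, with calls by limma over all genes. These lists too were chosen with earlier results known, so their counts are descriptions beside the share of all genes and not independent evidence of a direction. Of 24 tested genes of the FoxO family and its textbook targets, 4 rose and 14 fell after KLA for 4 hr, beside 8.10% and 21.3% of all genes. After median scaling 7 rose and 10 fell, and the list had an unscaled median of -1.26 against -0.47 over all genes. Tnfsf10, the death ligand TRAIL, rose by 5.37 ± 0.21, the mitochondrial superoxide dismutase gene Sod2 by 3.65 ± 0.18 and the cell cycle inhibitor gene Cdkn1a by 2.45 ± 0.27. The growth arrest gene Gadd45a fell by 3.34 ± 0.24 and Foxo4, another FoxO factor gene, fell by 2.56 ± 0.23. The receptor gene S1pr1 fell by 2.21, the autophagy kinase gene Ulk1 by 1.97 and the BH3-only gene Bbc3 by 1.73. Sesn2, the remaining sestrin, was singled out after its values were seen and fell by 1.50 ± 0.25. At 1 hr 4 of the 24 rose and none fell in RNA-Seq (Klf2 2.98 ± 0.19, Sod2 1.80 ± 0.18, Cdkn1a 1.35 ± 0.27 and Cited2 1.02 ± 0.17), beside 1.82% and 1.43% of all genes. The list had a median of 0.10 there, against -0.21 over all genes. In GRO-Seq 3 of 19 rose (Sod2, the BH3-only gene Bcl2l11 and Cdkn1a, at 2.29, 2.04 and 1.84) and Cat, the catalase gene, fell by 1.16, beside 4.31% of all genes higher and 15.5% lower. After median scaling 5 rose, with Klf2 and Ccng2 added at 1.15 each, and none fell. At 1 hr in RNA-Seq Bcl2l11 was added by that scaling.

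Of the genes of the PI3K, Akt and insulin pathway, 7 of the 22 tested in GRO-Seq fell and 1 rose at 1 hr, beside 15.5% and 4.31% of all genes. After median scaling 3 fell and 1 rose. The list had a median of -0.54 against -0.34 over all genes. The leukocyte PI3K catalytic subunit gene Pik3cd fell by 2.25 ± 0.34, the phosphatase gene Inpp5d (SHIP1) by 2.21 ± 0.35 and the kinase gene Sgk3 by 1.73 ± 0.29, and the regulatory subunit gene Pik3r5 rose by 1.07 ± 0.28. In RNA-Seq Sgk1, an Akt-related kinase gene, rose by 1.01 ± 0.15 at 1 hr, beside a GRO-Seq change of -0.51 ± 0.28 that was not called. No other of 23 genes was called in RNA-Seq at 1 hr, beside 1.82% of all genes higher and 1.43% lower. At 4 hr 4 of 23 fell and none rose, beside 21.3% and 8.10% of all genes, which became 4 each after median scaling, with Inpp5d at -3.08 ± 0.19, the regulatory subunit gene Pik3r2 at -2.15 ± 0.19, the insulin receptor gene Insr at -2.04 ± 0.32 and Tsc1, an mTORC1 inhibitor gene, at -1.51 ± 0.29. The list median was -0.43 against -0.47 over all genes.

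Of the 4 tested arrestin relatives, 3 fell at 4 hr and none rose, in either scaling, beside the same 21.3% and 8.10% of all genes. Arrb1 and Arrb2, the beta-arrestin genes, were at -2.59 ± 0.20 and -1.46 ± 0.19, and Arrdc2, an alpha-arrestin gene, at -2.16 ± 0.23. Arrdc2 also fell at 1 hr (-1.27 ± 0.23), like Arrdc3, and Arrb1 fell in GRO-Seq (-1.14 ± 0.33), though not after median scaling. Among 6 thioredoxin and glucose-sensing genes Mlxip, which encodes the glucose-sensing factor MondoA, fell by 1.07 at 4 hr and by 1.04 in GRO-Seq, and neither call held relative to the median gene. Of 12 sestrin partners of the GATOR and AMPK complexes, Nprl2, Depdc5 and Prkaa1 fell by 1.11, 1.11 and 1.01 at 4 hr, none of them called relative to the median gene, and Seh1l rose by 1.36 ± 0.17. Depdc5 also fell in GRO-Seq, by 1.19, again not after median scaling. In the strain comparison only Ddit4, an mTORC1 inhibitor gene of the FoxO target list, was called among these 5 lists, at -1.01 ± 0.16 in RNA-Seq (adjusted p = 0.0094 in limma), and not relative to the median gene.

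The genes whose profile was most like the mean of the 8 members tested in both assays were found by Pearson correlation over the 10 libraries among 8383 genes, each centred within its assay. They were Tpcn1 (r = 0.995), Gpr157, Dagla, Foxred2, Arid3a, Man1c1, Mnt, Slc43a2, Cnr2 and Scfd2 (r = 0.989 for the last). Mnt, a repressor that competes with Myc for Max, stood at 756, 355 and 17.8 tags per 10 M in C57BL6/J and at 744, 244 and 56.4 in BALBc/J, and Cnr2, a cannabinoid receptor gene, at 542, 189.9 and 8.88 and at 515, 154 and 6.33. The 10 libraries hold only 5 combinations of assay and treatment in each strain, so many genes follow the same steps, and the value is a description. Among the members themselves r with the same mean was 0.985 for Foxo3, 0.968 for Fbxo32, 0.954 for Sesn1, 0.936 for Arrdc3, 0.900 for Irs2, 0.625 for Foxo1, 0.274 for Txnip and -0.897 for Arrdc4.

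H3K27Ac, a mark of active promoters and enhancers, was summed as tags per 10 M over the called regions within 50 kb of each start. The sum was lower by at least 1.5-fold after KLA in both strains for 6 of the 10 genes (Fbxo32, Sesn1, Foxo3, Txnip, Arrdc3 and Pik3ip1), against 28.6% of the 10692 genes, and higher in both for none, against 8.03%. These lists have no replicates, compare the same KLA states as the choice of genes, and are described without a test. Around Fbxo32 the sum was 3264 tags over 28284 bp untreated and 522 over 10592 bp after KLA in C57BL6/J, and 3044 over 30115 bp and 473 over 9837 bp in BALBc/J. The mean was 115 tags per kb untreated and 49.3 after KLA in C57BL6/J and 101 and 48.0 in BALBc/J, so both the covered length and the density were lower. The ratios of 0.160 and 0.155 were undercut by 3.80% and 2.61% of genes with regions. No other gene of the table starts in this window.

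Foxo3 was alike in size, at 1143 tags over 10582 bp and 207 over 3728 bp in C57BL6/J and 955 over 10223 bp and 169 over 4035 bp in BALBc/J, with ratios of 0.181 and 0.177. Sesn1 was at 339.8 and 88.0 tags in C57BL6/J and at 210 and 105 in BALBc/J, and Arrdc3 at 697.5 and 319.6 and at 599 and 327. Txnip was at 1782 and 1085 and at 1397 and 774, in a window that also holds 5 other starts (Ankrd34a, Gm15441, Hfe2, Lix1l and Polr3gl). Pik3ip1 was at 222 and 71.9 and at 139.5 and 26.9, but no region lay within 1 kb of its own start and the window holds the start of Patz1. Irs2 kept most of its H3K27Ac, at 1099 and 844.5 tags in C57BL6/J and 893 and 695.5 in BALBc/J, ratios of 0.768 and 0.779 beside medians over genes of 0.731 and 0.788. Irs2 was thus the gene of the 5 with low RNA at 4 hr that had near-median ratios at 1 hr. Arrdc4 (ratios 1.03 and 0.563) and Foxo1 (0.809 and 1.81) differed between the strains, and Sesn3 had 1 small region of 32.7 tags in untreated C57BL6/J and none after KLA, and 33.2 and 32.1 tags in BALBc/J.

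**Figure D4:**
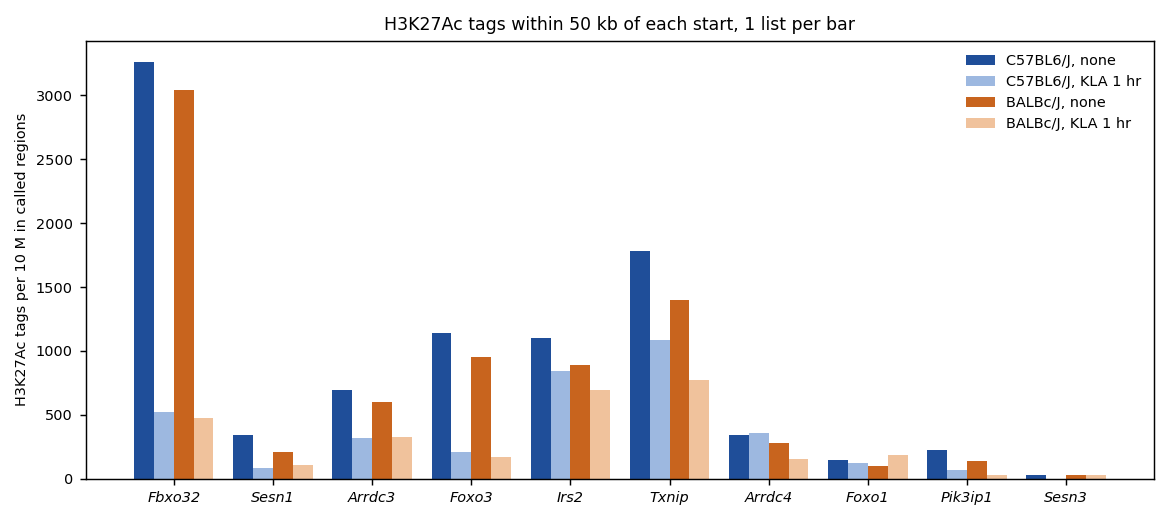
H3K27Ac tags per 10 M summed over called regions within 50 kb of each start, 1 list per bar, dark bars untreated and light bars after KLA for 1 hr. The bars of Fbxo32 drop from 3264 to 522 in C57BL6/J and from 3044 to 473 in BALBc/J, while those of Irs2 stay close together.

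At the start itself the Fbxo32 region went from 1166 tags over 5423 bp to 159.8 over 2416 bp in C57BL6/J and from 991 over 5780 bp to 105 over 1991 bp in BALBc/J. The Foxo3 region went from 701 to 145 tags and from 941 to 169, and the Irs2 region from 443 to 377 and from 385 to 369. The Arrdc4 region was at 199 and 264 tags in C57BL6/J and at 169 and 73.0 in BALBc/J, against higher RNA at 4 hr in both strains. The region at the upstream start of Sesn1 went from 135.6 to 88.0 tags in C57BL6/J and from 151.5 to 105 in BALBc/J. At the downstream start of Sesn1 a region of 142 tags was listed in untreated C57BL6/J and none after KLA, and regions of 165 and 48.7 tags in BALBc/J. H3K4me2 marks promoters and enhancers whether or not they are active. Summed within 50 kb of each start, and not at the start alone, its ratios were 0.857 to 1.14 for all members except Arrdc3 in C57BL6/J (1.56). This range covers both strains, beside medians of 1.02 and 1.01 over genes in the same window.

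Peaks of p65 after KLA lay within 50 kb of the start in both replicates of both strains for 9 of the 10 genes, all but Sesn3, against 88.4% of genes. They lay within 1 kb for 4 (Fbxo32, Txnip, Arrdc4 and Irs2), against 35.0% of genes. Foxo3 was just outside this count, with p65 centres at -955 and -991 bp in 2 lists and at -1034 and -1070 bp in the others. PU.1 peaks lay within 1 kb in all 4 lists for 6 (Fbxo32, Sesn3, Foxo3, Txnip, Arrdc4 and Pik3ip1), against 64.7%. All these shares are near the background. Of 45 p65 loci listed in all 4 p65 lists near the members, where centres within 100 bp are joined, 31 also had a PU.1 peak in at least 1 list. The share over all p65 loci of the genome was not computed, so nothing is read from this count. Irs2 had 10 of the 45, Txnip 9, Arrdc4 8, Fbxo32 and Foxo3 5 each, Sesn1 and Foxo1 3 each, and Arrdc3 and Pik3ip1 1 each. Per the file headers, the input library behind the 2 p65 lists of BALBc/J came from C57BL6/J.

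The highest p65 peak of Fbxo32 lay at -47020 bp (upstream) of its start (chr15:58093345-58093593), at 335 and 404 tags per 10 M in the 2 C57BL6/J replicates and 413 and 325 in those of BALBc/J. C/EBPa was listed there in all 4 lists, at 134 untreated and 156 after KLA in C57BL6/J and 112 and 205 in BALBc/J. The C/EBPa peak with the most tags near Fbxo32 was its nearest, at -135 bp, at 200.4 and 143 in C57BL6/J and 219 and 148 in BALBc/J. The PU.1 peak with the most tags, at -35325 bp, was at 221 and 138.5 and at 220.6 and 154. Irs2 had its highest p65 peak at -39472 bp (chr8:11047791-11048014), at 309.7 and 388 in C57BL6/J and 244 and 253 in BALBc/J.

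At Txnip the p65 peak with the most tags was also the nearest, 26 bp from the start (chr3:96361777-96362025), at 215 and 372 tags in the C57BL6/J replicates and 229 and 336 in those of BALBc/J. C/EBPa at this locus was at 32.1 untreated and 85.8 after KLA in C57BL6/J and at 43.8 and 94.1 in BALBc/J, and PU.1 was listed there only after KLA, at 36.3 and 31.7. Txnip was therefore a gene with a high p65 peak at its start and lower RNA at 1 hr. The PU.1 peak of Arrdc4 with the most tags lay 10031 bp into the gene, at 344 and 355 in C57BL6/J and 378.5 and 382.5 in BALBc/J, and its highest p65 peak, 39865 bp downstream, held 98.3 to 132 tags. Arrdc3 had its nearest PU.1 peak 2618 bp downstream, at 209 and 206 in C57BL6/J and 178 and 225 in BALBc/J, and its p65 loci held at most 35.5 tags. The highest p65 peak of Foxo1 lay at -10300 bp (133 to 197 tags), that of Foxo3 45381 bp downstream (119 to 235), and that of Pik3ip1 at -42126 bp (16.9 to 26.1). Around the upstream start of Sesn1 the highest p65 peak, 28523 bp downstream, held only 19.3 to 41.9 tags. At -4318 bp of its downstream start, inside the gene (chr10:41602810-41603034), p65 was at 296.5 and 420.1 in the C57BL6/J replicates and 219 and 324 in those of BALBc/J. PU.1 there was at 146.6 untreated and 254 after KLA in C57BL6/J and at 168.5 and 214 in BALBc/J. This locus lies outside the window of the upstream start and is in none of the counts above.

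**Figure D5:**
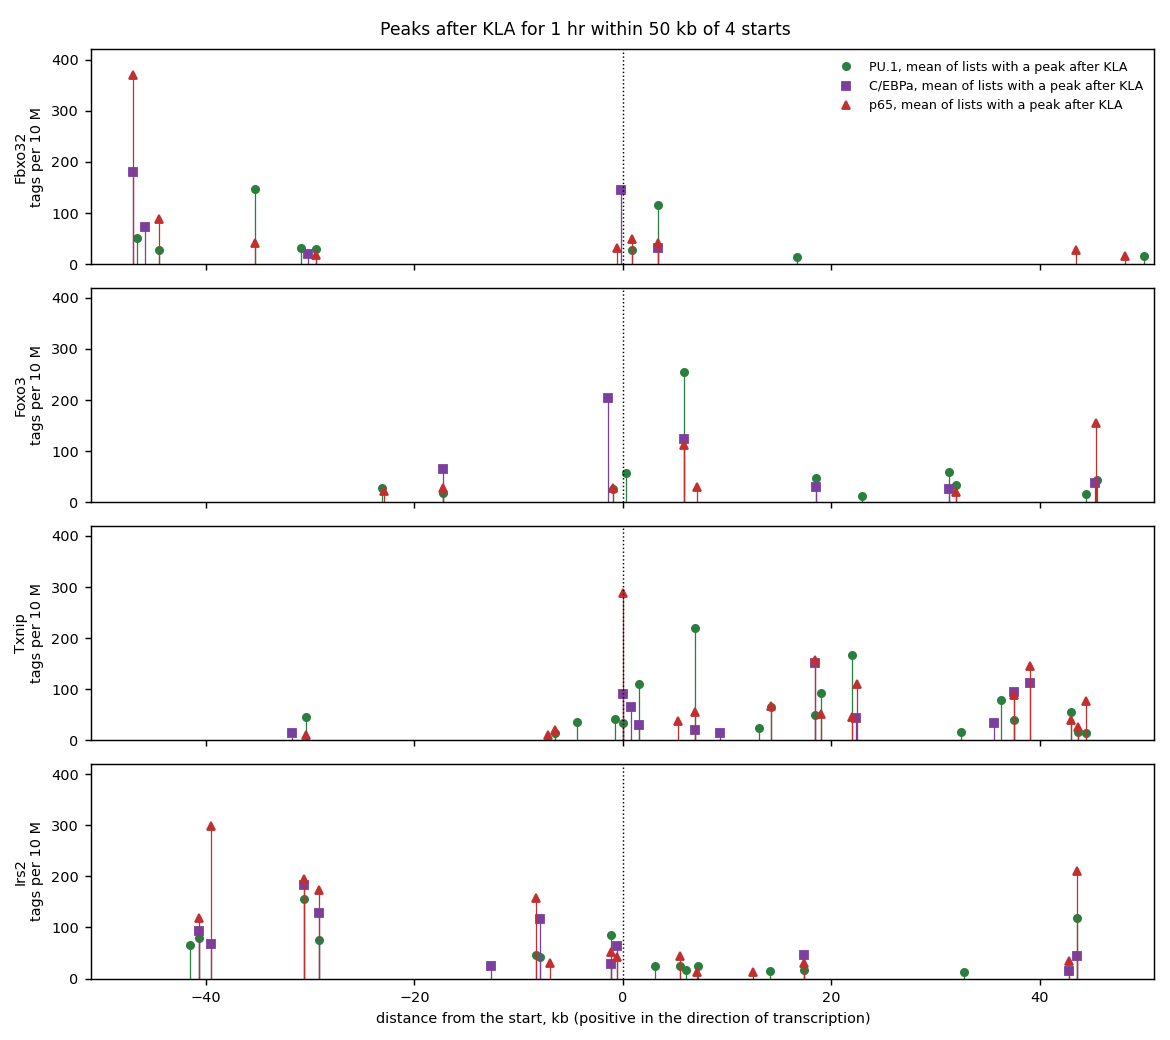
Peaks after KLA for 1 hr by distance from the start, in kb, for 4 genes, with the mean tags per 10 M of the lists that hold a peak. Circles are PU.1, squares C/EBPa and triangles p65, and the dotted line is the start. Txnip has its highest p65 peak at the start, while those of Fbxo32 and Foxo3 lie over 45 kb away.

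Of 113 PU.1 loci near the members 49 were in all 4 lists, 19 in untreated lists only and 27 in KLA lists only, and of 81 C/EBPa loci 33, 23 and 13. The same shares over all loci of the genome were not computed, so no gain or loss is read from these counts. The ratios that follow cover only loci in all 4 lists, which had to be called after KLA. Loci near the members were joined over the PU.1, C/EBPa and p65 lists, keeping the highest tags of each list. The genome loci beside them were built differently, from the nearest peak of the same factor within 100 bp of an untreated C57BL6/J peak. Over the 49 PU.1 loci the median ratio was 0.892 in C57BL6/J and 0.855 in BALBc/J, beside 0.964 and 0.905 over 42608 loci of the genome, and over 33 C/EBPa loci it was 0.894 and 0.839, beside 0.952 and 0.896 over 23552. A ratio of at most 0.5 in both strains was found at 3 of 49 PU.1 loci against 2.68% of all, and at 3 of 33 C/EBPa loci against 5.37%. These were singled out after their values were seen, and all lay near Foxo3 or Fbxo32. Inside Foxo3, 31328 bp downstream of the start (chr10:41965088-41965350), PU.1 was at 137 and 61.0 tags in C57BL6/J and 138 and 55.6 in BALBc/J, and C/EBPa at 84.2 and 30.5 and at 107 and 21.1. At 18539 bp (chr10:41977896-41978122) PU.1 was at 91.3 and 44.5 and at 113 and 49.2, and C/EBPa at 114 and 26.7 and at 100 and 32.6. The others were a PU.1 locus at -46644 bp of the Fbxo32 start (111 and 54.4 tags in C57BL6/J, 110.3 and 47.6 in BALBc/J) and a C/EBPa locus at -30247 bp (50.1 and 21.0, and 49.1 and 19.2). By contrast the highest PU.1 peak of Foxo3, 5821 bp downstream, kept 261 and 280.4 tags in C57BL6/J and 283.5 and 230.2 in BALBc/J.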

How the data were processed

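The members and the gene lists were chosen with earlier results of these data known. Bowtie 0.12.7, HOMER and the mm9 build are named in the submitters' processing notes. Per the file headers, the expression table was deposited as log2 values of exon tags scaled by the library total. The values were read as log2 of 1 plus exon tags per 10 M, with a random part of 0 to 1 tag added to each tag number. The headers do not name this part, which averaged 0.495 to 0.503 tags per library at low tag numbers. Whole tags were recovered by rounding down. The sources used here do not give whether counting used the strand. The signal of peaks and regions, as the authors deposited it, is in tags per 10 M. Peaks were called for each sample against an input, per the file headers, and a signal is listed only where a peak was called. Transcript length in bases was deposited in the same table.

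Expression was fitted with limma 3.58.1 in R 4.3.3 on log2(tags per 10 M + 10), with terms for treatment and strain, for genes of at least 20 tags per 10 M in 2 libraries of the assay (10692 in RNA-Seq, 9109 in GRO-Seq). Calls needed a Benjamini-Hochberg adjusted p under 0.05 and a change of at least 1. The fit was checked on simulated data. Residual degrees of freedom were 2 and 1. Named genes were all members, up to 8 called genes per list, the 10 most alike genes, and each member's nearest and highest peaks. Of 40 samples 30 were used, and 10 were not used here. Alternatives covered pseudocounts of 2 and 50, filters, median scaling, left-out libraries, the choice of transcript, and peak windows and minimums. Peaks were joined in Python 3 with numpy and pandas.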

Additional observations from a re-analysis of the deposited data

Results flagged for a closer look

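For 4 values the strains moved in opposite directions after KLA, with 1 library a strain and treatment, so the difference was not tested. RNA-Seq of Txnip at 4 hr was at 0.11 in C57BL6/J and -0.08 in BALBc/J on the log2 scale, a difference of 0.19. GRO-Seq of Foxo1 at 1 hr was at -0.32 and 0.14, a difference of -0.46. The log2 ratio of H3K27Ac tags within 50 kb was -0.31 and 0.85 for Foxo1, a difference of -1.16, and 0.05 and -0.83 for Arrdc4, a difference of 0.88.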

How the results depend on the processing

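No paired analysis was possible by replicate number, because only p65 has numbered replicates, and p65 enters no test. Through its terms for treatment and strain, the fit paired libraries by treatment in the strain comparison and by strain in the KLA contrasts. Over all genes, the number called in the strain comparison was 396 in RNA-Seq and became 170 with a pseudocount of 50, 217 with a filter of 100 tags and 0 without a filter (2186 genes had an unadjusted p under 0.05 in limma as reported). In GRO-Seq it was 82 and became 26, 26 and 0 (666 unadjusted). For KLA at 1 hr in RNA-Seq 348 became 202 with a pseudocount of 50 and 4 without a filter, at 4 hr 3141 became 1966 and 1731, and in GRO-Seq 1804 became 551, 0, and 726 with a filter of 100 tags. With a 10 kb window in place of 50 kb the mean number of peaks per list near the members was 22.75 in place of 62.5 for p65, 24.75 in place of 75 for PU.1, 22.75 in place of 53.75 for C/EBPa, 19.5 in place of 56.75 for H3K4me2 and 15 in place of 31 for H3K27Ac. The cause of these moves was not tested, apart from the smaller window. Without a replicate of p65, and with a fold of 2 for H3K27Ac, counts stayed within 1.5 times. The members kept their sign in every setting run, except Foxo1, Irs2 and Txnip near 0 in KLA contrasts and Foxo1, Foxo3, Irs2 and Arrdc4 near 0 in strain contrasts, and no member became called in a strain contrast. Their sizes were less stable. In KLA contrasts 18 member values at 4 hr, 8 at 1 hr and 12 in GRO-Seq moved by more than the standard deviation of the 2 strains. The other 70, 100 and 56 did not, but many of these could not move by construction. A change taken within 1 strain always lies inside this bound. Filters and the trend setting leave a member's fitted change as it was, as does leaving out a 4 hr library for the change at 1 hr. These counts are therefore no measure of stability. Irs2 at 4 hr ran from -4.00 to -1.97, and Fbxo32 in GRO-Seq from -4.83 to -2.98. GRO-Seq values of Sesn3 and Pik3ip1, and RNA-Seq values of Pik3ip1 at 1 hr, are limited by depth.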
